A study of Mus musculus with 6 samples.

Results

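The genes described here are a chosen list of 10 that encode subunits of the SRCAP complex or other factors that place or remove the histone variant H2A.Z. They are Srcap, Vps72, Znhit1, Actr6, Dmap1, Yeats4, Ruvbl1, Ruvbl2, Anp32e and Ino80, and the list is not meant to be complete. They were found in the table by gene name, and no value entered that rule. The deposited RNA table lists 28510 genes, and the 10 names occupied 11 of its rows, because Srcap appeared under both ENSMUSG00000053877 and ENSMUSG00000090663. RNA was measured in whole tibialis anterior, a shin muscle, from C57BL/6 mice aged 12 months. The 3 WT samples carried floxed alleles of both H2A.Z genes, H2A-Z.1flox/flox and H2A-Z.2 flox/flox, and their HSA Cre genotype was WT. The 3 KO samples were H2A-Z.1-/- and H2A-Z.2-/- with HSA Cre+. HSA is the human skeletal actin promoter, which acts in muscle fibres, so the other cells of the muscle keep both genes. The comparison asked how transcription in muscle differs once H2A.Z is lost, and here it is read for the machinery that handles H2A.Z.

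H2A.Z replaces the histone H2A in nucleosomes near gene starts, and dedicated remodellers place it there. In the SRCAP complex, the ATPase SRCAP is the motor and the scaffold, YL1 (encoded by Vps72) binds the H2A.Z-H2B dimer, and the subunits ZNHIT1 and ARP6 (Actr6) are needed for the exchange. DMAP1, GAS41 (Yeats4) and the AAA+ ATPases RUVBL1 and RUVBL2 are shared with the TIP60-p400 complex, and the RUVBL pair also belongs to INO80 and to the R2TP co-chaperone. ANP32E takes H2A.Z out of nucleosomes, and INO80 was described in yeast as able to replace H2A.Z with H2A. In cultured muscle cells, ZNHIT1 is known for H2A.Z deposition at the myogenin gene during differentiation.

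The libraries held 35456883 to 102919416 counts, and the 11 rows of the 10 genes held 215 to 3613 counts each per library. All 11 rows passed the filter on low counts. Both deleted genes were low in KO. H2afz stood at 18.5, 15.9 and 15.2 CPM (counts scaled to a common library size after TMM) in WT replicates 1 to 3 and at 5.15, 4.14 and 4.51 CPM in KO replicates 1 to 3, a fall of 3.59-fold (edgeR adjusted p = 4.42e-05). H2afv stood at 19.1, 16.0 and 20.7 CPM in WT and at 4.06, 3.77 and 4.57 CPM in KO, a fall of 4.50-fold (edgeR adjusted p = 2.42e-05). Muscle fibre markers were abundant, with 267558 to 293699 summed CPM over 15 genes in WT and 184570 to 236229 in KO. A gene was called when its edgeR quasi-likelihood p, adjusted by the Benjamini-Hochberg method over 16628 tested genes, was below 0.05. The labels name replicates without tying each to an animal of its own, so the p-values reflect only how far these 3 samples per group varied, which may be technical.

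Of the 11 rows, 3 fell (Vps72, Dmap1 and Ruvbl1), 1 rose (Srcap ENSMUSG00000090663) and 7 were not called by edgeR. Among all genes tested, 12.4% fell and 13.5% rose, and 25.9% were called in either direction. The 4 calls make up 36.4% of the 11 rows, a set too small to set apart from that background. The median log2 fold change of KO over WT was -0.13 over the 11 rows and 0.01 over all genes tested. Of the 11 rows, 7 had a negative and 4 a positive log2 fold change. Library size alone as the scaling shifts all genes upwards, with a median of 0.08 over the 11 rows and 0.22 over all genes, and 3417 genes then rose and 1030 fell in place of 2249 and 2062. In 4 rows all KO libraries lay below all WT libraries and in 3 rows all lay above, against 21.0% and 21.6% of all genes and 42.6% for either direction. The fold changes of the members are drawn with their intervals in the plot of changes.

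**Figure D1:**
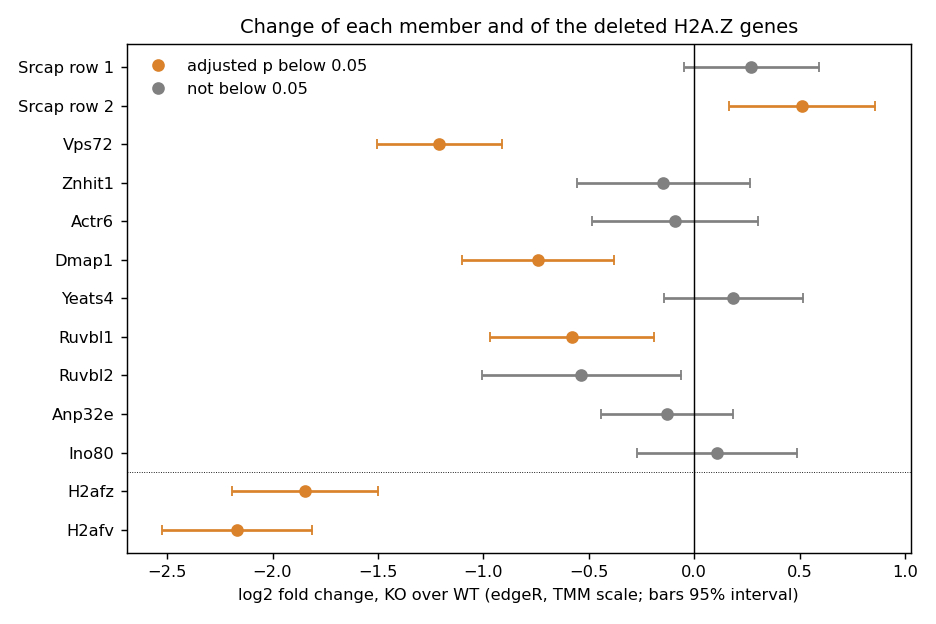
Log2 fold change of KO over WT for the 11 rows of the 10 genes, and, under the dotted line, for the deleted genes, with 95% confidence intervals from the edgeR fit and called rows in orange. Among the 11 rows Vps72 lies farthest from 0 at -1.21, Dmap1 and Ruvbl1 follow at -0.74 and -0.58, and Srcap ENSMUSG00000090663 (row 2) lies at 0.51.

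Vps72, which encodes the H2A.Z-binding subunit YL1, changed most. Its level was 36.8, 31.6 and 36.5 CPM in WT and 16.3, 14.1 and 15.0 CPM in KO. Every KO library lay under the lowest WT library, and the replicates of each group lay close together. The mean went from 35.0 ± 2.89 CPM to 15.1 ± 1.10 CPM (SD, n = 3 each), a fall of 2.31-fold (log2 fold change -1.21, SE 0.14, 95% interval -1.51 to -0.91, edgeR adjusted p = 0.000218). The call held in 16 of 16 alternative settings, with log2 fold changes from -1.33 to -0.99. In bulk tissue, fewer cells of a type and less RNA per cell cannot be told apart. Macrophage markers rose in the same KO libraries, with 11 of 14 called by edgeR, none at 0 in all libraries and a summed level of 87.7 to 202 CPM in WT and 295 to 449 CPM in KO. Of the fibroblast markers, 6 of 10 rose, from a summed 789 to 1171 CPM in WT to 1113 to 1934 CPM in KO. Adipocyte markers rose in 6 of 8 cases, with a summed 103 to 139 CPM in WT and 127 to 196 CPM in KO. Of the leukocyte markers, 5 of 9 tested rose, from a summed 10.5 to 12.8 CPM to 27.6 to 64.1 CPM, and of the Schwann cell markers 3 of 10 rose, from 32.0 to 43.1 CPM to 51.0 to 67.1 CPM. None of these markers was at 0 in all libraries, though Cd3e, Cd3g and Cd79a had no count in some WT libraries. Of the 15 muscle fibre markers, 1 fell, and their summed level in KO lay below WT in every library. Of the 10 endothelial markers, 0 were called and 9 had a negative log2 fold change. Their summed level was 287 to 322 CPM in WT and 220 to 276 CPM in KO. Of the 8 satellite cell markers, 0 were called, with a summed 47.0 to 52.1 CPM in WT and 47.7 to 64.7 CPM in KO. The part of these cell types in the changes of the members was not tested.

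Vps72 has a neighbour whose reads could bear on it. Tmod4, which encodes tropomodulin 4 of the muscle thin filament and was looked at after its values were seen, begins 1425 bases downstream of Vps72 on the same strand in GENCODE vM21. Tmod4 stood at 412, 367 and 378 CPM in WT and 246, 191 and 261 CPM in KO, so it was the far more abundant gene and also lower in every KO library. It fell by 0.73 on the log2 scale (log2 fold change -0.73, SE 0.17, edgeR adjusted p = 0.0105), a call lost in 3 of 16 settings. These were the fit without WT replicate 1, library size alone, and the joint removal of WT replicate 2 and KO replicate 1 (edgeR adjusted p = 0.0513, 0.0503 and 0.0507). There were 8.92, 8.62 and 9.66 Vps72 counts per 100 Tmod4 counts in WT and 6.63, 7.40 and 5.74 in KO. Vps72 was thus lower relative to Tmod4 as well, in every KO library. Whether the authors' counting passed reads between the neighbours was not tested.

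The SRCAP subunit genes Znhit1 and Actr6 were not called. Znhit1 stood at 22.0, 19.1 and 32.1 CPM in WT and 23.4, 20.1 and 22.7 CPM in KO. The groups overlapped, and WT replicate 3 alone stood high. Its log2 fold change was -0.15 (SE 0.19, 95% interval -0.56 to 0.26, edgeR adjusted p = 0.606), and without WT replicate 3 it was 0.10. Actr6, which encodes the actin-related subunit ARP6, stood at 5.38, 6.78 and 5.07 CPM in WT and 4.90, 6.17 and 5.08 CPM in KO. Replicate 2 was the highest library of either group, and the groups overlapped. The log2 fold change was -0.09 (SE 0.18, 95% interval -0.48 to 0.30, edgeR adjusted p = 0.750). For both genes the intervals leave room for changes smaller than that of Vps72, and neither interval reaches the fall seen for Vps72.

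The motor subunit was read in separate rows that did not give the same call. Srcap ENSMUSG00000053877 stood at 20.6, 19.8 and 20.8 CPM in WT and 23.9, 21.2 and 28.8 CPM in KO. All KO libraries lay above all WT libraries, but KO replicate 2 lay only just above, and the difference was not called (log2 fold change 0.27, SE 0.15, edgeR adjusted p = 0.197). Without KO replicate 2 this row was called (log2 fold change 0.38, edgeR adjusted p = 0.0402). Srcap ENSMUSG00000090663 stood at 13.2, 12.7 and 17.1 CPM in WT and 21.4, 18.1 and 21.9 CPM in KO, again with every KO library above every WT library. This row rose 1.43-fold (log2 fold change 0.51, SE 0.16, 95% interval 0.17 to 0.86, edgeR adjusted p = 0.0349). The call was lost when WT replicate 1, WT replicate 2, KO replicate 1 or KO replicate 3 was left out, with edgeR adjusted p = 0.149, 0.128, 0.1003 and 0.0774. The second identifier is not in GENCODE vM21, and counting could have split the reads of 1 gene over the rows. It held 39.1%, 39.0% and 45.1% of the joint Srcap counts in WT and 47.3%, 46.1% and 43.2% in KO. With the rows summed, Srcap was not called (log2 fold change 0.38, edgeR adjusted p = 0.0799).

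**Figure D2:**
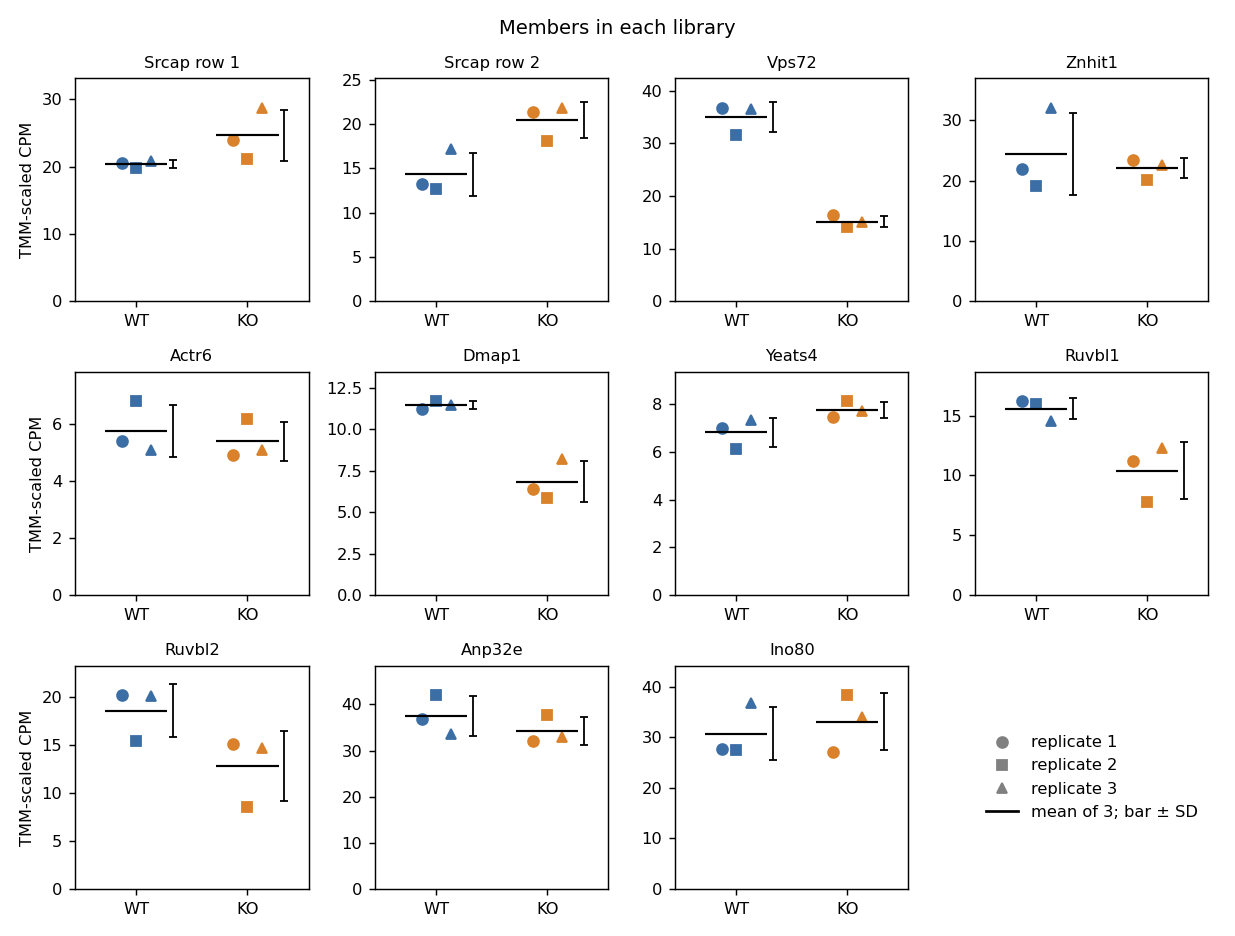
CPM in each of the 6 libraries for the 11 rows of the 10 genes, 1 panel per row with its own linear axis from 0. Lines are means and bars ± SD of 3 libraries, row 1 is Srcap ENSMUSG00000053877 and row 2 is Srcap ENSMUSG00000090663. Vps72 lies at 31.6 to 36.8 CPM in WT and 14.1 to 16.3 CPM in KO, while Znhit1, Actr6, Anp32e and Ino80 have overlapping groups.

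Dmap1, whose product is also known as a partner of the DNA methyltransferase DNMT1, was the second member that fell. It stood at 11.2, 11.7 and 11.4 CPM in WT and 6.42, 5.86 and 8.23 CPM in KO. The WT libraries were nearly equal, and the highest KO library stayed well below them. The fall was 1.67-fold (log2 fold change -0.74, SE 0.16, 95% interval -1.10 to -0.38, edgeR adjusted p = 0.00802), and it remained called with any 1 library left out. Eri3, which runs towards Dmap1 on the other strand and ends 384 bases away, had a log2 fold change of -0.36 (SE 0.17, edgeR adjusted p = 0.136).

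Ruvbl1 and Ruvbl2 encode paired AAA+ ATPases that form mixed rings. Ruvbl1 stood at 16.2, 16.0 and 14.6 CPM in WT and 11.2, 7.76 and 12.3 CPM in KO. Groups did not overlap, and KO replicate 2 was the lowest library. Ruvbl1 fell with a log2 fold change of -0.58 (SE 0.18, 95% interval -0.97 to -0.19, edgeR adjusted p = 0.0340). The call was lost when WT replicate 1, 2 or 3 or KO replicate 1 was left out, with edgeR adjusted p = 0.107, 0.0823, 0.0664 and 0.0656, and with library size alone as the scaling (log2 fold change -0.37, edgeR adjusted p = 0.183). Ruvbl2 stood at 20.2, 15.4 and 20.1 CPM in WT and 15.1, 8.54 and 14.7 CPM in KO. Its highest KO library came just under its lowest WT library, and KO replicate 2 again stood lowest. It was not called (log2 fold change -0.54, SE 0.21, 95% interval -1.01 to -0.06, edgeR adjusted p = 0.0892), and its log2 fold change was -0.30 without KO replicate 2. The ratio of Ruvbl1 to Ruvbl2 per kb of gene length had a median of 1.26 in WT and 1.31 in KO, and every KO value lay inside the WT range (two-sided exact permutation p = 1, where 0.1 is the smallest possible). Gys1, which encodes muscle glycogen synthase and overlaps Ruvbl2 on the other strand, had a log2 fold change of 0.17 (SE 0.21, edgeR adjusted p = 0.601).

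Yeats4 encodes GAS41, whose YEATS domain binds acylated histone lysines. It stood at 6.98, 6.13 and 7.32 CPM in WT and 7.44, 8.11 and 7.71 CPM in KO. All KO libraries lay above all WT libraries, by little. The difference was not called (log2 fold change 0.18, SE 0.15, 95% interval -0.14 to 0.51, edgeR adjusted p = 0.402). Of Dmap1, Ruvbl1, Ruvbl2 and Yeats4, 2 genes therefore fell, 1 was lower without a call and 1 was slightly higher without a call.

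Upstream windows are shown for Dmap1 and Ruvbl1, which fell together in KO, and for Srcap, of which 1 of the 2 rows rose and the summed rows were not called. RefSeq entries were found for 9 of the 10 genes, all but Vps72, and each window is the 250 bases before the annotated start in GRCm38.p6, written along the gene's strand. Capitals mark the searched motifs on either strand: CCGGAAG (ETS core), GGGCGG (SP/KLF box), CCAAT (NF-Y site), the NRF1 site, CACGTG (E-box), TATAAA and AAGATGG (YY1 core). No searched motif overlaps another in these sequences.
Dmap1, chr4:117682226-117682475, minus strand: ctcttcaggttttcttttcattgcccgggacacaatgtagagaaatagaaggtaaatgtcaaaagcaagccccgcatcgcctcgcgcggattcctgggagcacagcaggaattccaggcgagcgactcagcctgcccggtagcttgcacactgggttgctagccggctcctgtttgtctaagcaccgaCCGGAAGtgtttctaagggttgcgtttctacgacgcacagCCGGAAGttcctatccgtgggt
Ruvbl1, chr6:88465159-88465408, plus strand: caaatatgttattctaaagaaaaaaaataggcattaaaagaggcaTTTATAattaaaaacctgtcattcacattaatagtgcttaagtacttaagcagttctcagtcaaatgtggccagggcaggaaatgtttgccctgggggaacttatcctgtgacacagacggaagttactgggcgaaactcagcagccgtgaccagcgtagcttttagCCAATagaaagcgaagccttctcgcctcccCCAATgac
Srcap, chr7:127511733-127511982, plus strand: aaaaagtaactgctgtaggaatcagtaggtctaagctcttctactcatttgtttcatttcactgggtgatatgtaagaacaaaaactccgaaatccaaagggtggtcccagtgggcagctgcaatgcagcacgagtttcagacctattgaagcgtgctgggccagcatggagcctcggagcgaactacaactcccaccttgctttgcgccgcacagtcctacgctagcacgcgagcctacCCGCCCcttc
Dmap1 held CCGGAAG at 2 places, a motif found in 6.91% of all 32851 windows. Ruvbl1 held CCAAT at 2 places and the reverse of TATAAA at 1, and these motifs occur in 33.8% and 12.4% of all windows. Srcap held the reverse of GGGCGG at 1 place, a motif found in 32.7% of windows. These 3 windows had no searched motif in common. Their CpG counts were 17 for Dmap1, 6 for Ruvbl1 and 11 for Srcap, and the median over all windows was 6. A match is a description of these letters and not a shown binding site.

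Anp32e, whose product takes H2A.Z out of nucleosomes, was not called, nor was Ino80, for which replacement of H2A.Z was described in yeast. Anp32e stood at 36.8, 42.0 and 33.6 CPM in WT and 32.1, 37.8 and 33.0 CPM in KO. The groups overlapped, and replicate 2 was the highest library in both. The log2 fold change was -0.13 (SE 0.14, 95% interval -0.44 to 0.19, edgeR adjusted p = 0.552). Ino80 stood at 27.8, 27.5 and 36.7 CPM in WT and 27.0, 38.3 and 33.9 CPM in KO, with the lowest library of all among the KO samples. Its log2 fold change was 0.11 (SE 0.17, 95% interval -0.27 to 0.49, edgeR adjusted p = 0.681). Both intervals lie entirely above that of Vps72.

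KO replicate 2 was an end point of its group in all 11 rows, the lowest KO library in 7 and the highest in 4. The share of all genes with KO replicate 2 at an end point was not computed, so this is not read as a trait of the members. It also had the highest share of mitochondrial counts, 32.1%, where the other 5 libraries had 19.9% to 25.5%. Its part in the spread of the members was not tested. Across the 11 rows the coefficient of variation ran from 1.96% to 27.9% in WT and from 4.35% to 28.8% in KO.

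Levels between genes were compared per kb of gene length, using the deposited signal, which the authors normalized and divided by length. In WT, Anp32e was highest with a median signal of 3312 per kb, followed by Vps72 at 2715 and Znhit1 at 2084. Anp32e lay above Vps72 in every library, while the ranges of Vps72 and Znhit1 overlapped. Ruvbl1 followed at 976, then Ruvbl2 at 780 and Dmap1 at 750, with overlapping ranges for the last pair. Srcap ENSMUSG00000053877 at 506, Ino80 at 388 and Yeats4 at 372 each overlapped the next in order, which for Yeats4 was Srcap ENSMUSG00000090663 at 309. Actr6 was lowest at 225 and lay apart from it. In KO, Anp32e at 2936 and Znhit1 at 2125 stood apart above Vps72 at 1105. From Ruvbl1 at 688 down to Yeats4 at 407, each gene overlapped the next, Dmap1 among them at 427, and Actr6 was again lowest at 210. The order depends on the length used. With the merged exons of GENCODE vM21 as the length, a choice made after seeing the data, Znhit1 led in both genotypes with medians of 842 and 859 per kb. On that length Vps72 went from the third place in WT at 713 to the seventh of 10 in KO at 290. In WT the range of Anp32e overlapped those of Znhit1 above it and Vps72 below it. In KO the range of Vps72 overlapped that of Ino80 above it. Srcap, with its rows summed, was last in WT at 153 and lay apart from Actr6. Dmap1 was last in KO at 176, with a range that overlapped that of Actr6.

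**Figure D3:**
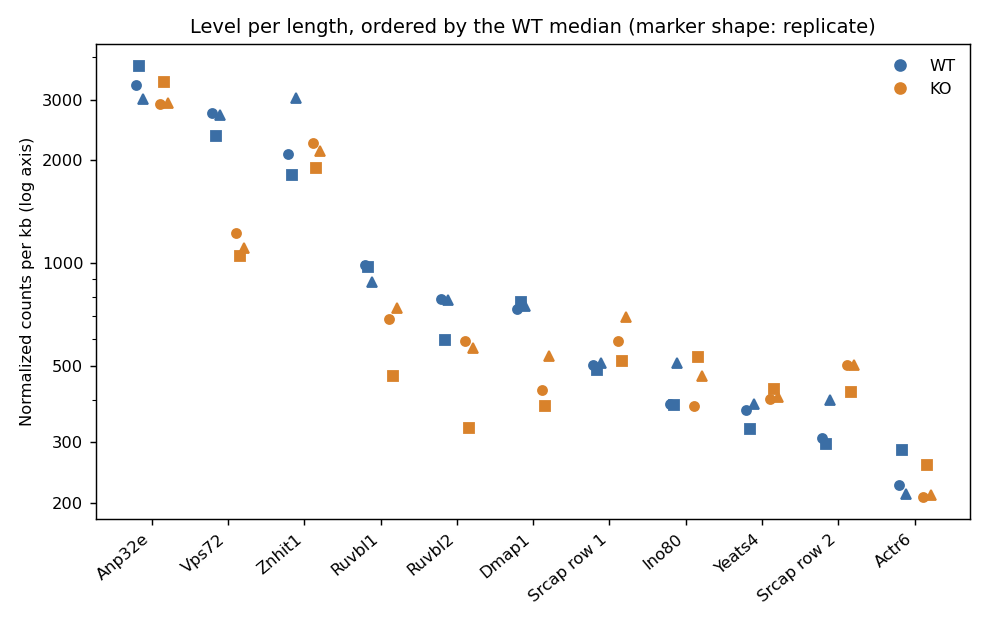
Normalized counts per kb of gene length, the unit of the deposited signal, for the 11 rows in each library on a log axis, ordered by the WT median. Anp32e, Vps72 and Znhit1 lie highest in WT at medians of 3312, 2715 and 2084, and Vps72 lies at 1105 in KO.

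The transcript level of each member relative to what was left of the H2A.Z transcripts was computed as signal per kb over the sum of H2afz and H2afv. This is a ratio of RNA and not of protein. Cells other than fibres keep both H2A.Z genes, so numerator and denominator may come from different cells of the muscle. The ratio therefore gives no balance within a cell, and the cell source of the remaining H2A.Z transcripts was not tested. Because the denominator is made of the deleted genes, a rise of this ratio follows from the deletion. The denominator is the same for every member, so differences between members restate their own changes given above. The ratio was higher in every KO library than in every WT library for all 11 rows. In each the two-sided exact permutation p was 0.1, the smallest that 3 against 3 samples allow, and 0.117 after adjustment over 14 ratios. Vps72 had the least increase, from 1.10, 1.11 and 1.19 in WT to 1.91, 1.97 and 1.85 in KO, or 1.68-fold. Anp32e went from 1.33, 1.78 and 1.33 to 4.53, 6.35 and 4.92, or 3.56-fold, and Srcap ENSMUSG00000090663 had the greatest increase at 5.57-fold. The remover Anp32e and the loader subunit Vps72 were also compared directly. Their ratio was 1.21, 1.60 and 1.11 in WT and 2.37, 3.23 and 2.66 in KO, a 2.12-fold increase without overlap (two-sided exact permutation p = 0.1). Of this pair Vps72 was called and Anp32e was not. The ratio of Ino80 to Srcap ENSMUSG00000053877 changed 0.901-fold with overlapping groups (two-sided exact permutation p = 0.6).

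**Figure D4:**
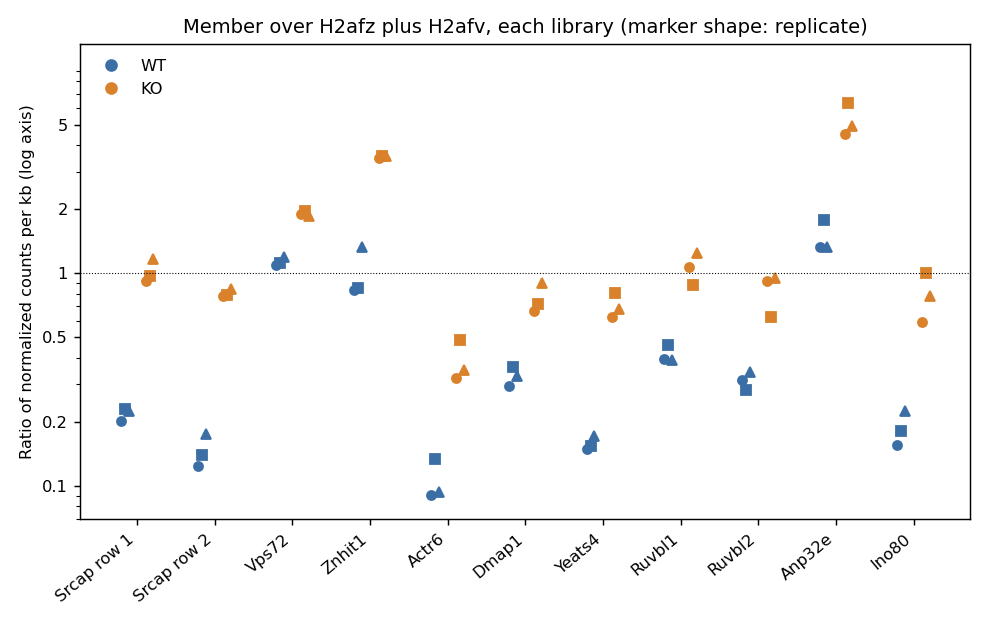
Ratio of each member's signal per kb to the summed signal per kb of H2afz and H2afv, in each library on a log axis. Every row is higher in KO than in WT, by 1.68-fold for Vps72 and by 5.57-fold for Srcap ENSMUSG00000090663 (row 2).

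The partners of these genes were read from lists of the complexes they share. Over 5 lists, 65 genes were tested, of which 8 fell and 2 rose, against 12.4% and 13.5% of all genes tested. Of 11 other INO80 subunits, 3 fell and 0 rose, 10 had a negative log2 fold change, and the median was -0.28 against 0.01 for all genes (-0.06 and 0.22 with library size alone). Tfpt, a metazoan INO80 subunit, had a mean of 5.21 ± 0.208 CPM in the WT libraries and 3.12 ± 0.342 CPM in the KO libraries (SD, n = 3), without overlap (log2 fold change -0.74, SE 0.17, edgeR adjusted p = 0.00993). Actr8, which encodes the actin-related subunit ARP8, fell by 0.62 on the log2 scale (edgeR adjusted p = 0.0145). Uchl5, which encodes a deubiquitinase shared with the proteasome, also fell by 0.62 (edgeR adjusted p = 0.0195). Actr8 was not called without WT replicate 1 or KO replicate 1 (edgeR adjusted p = 0.0679 and 0.0560). Uchl5 was not called without WT replicate 1, WT replicate 2, KO replicate 1 or KO replicate 3 (edgeR adjusted p = 0.0597, 0.0762, 0.0823 and 0.0655). With library size alone as the scaling, none of the 3 was called, with edgeR adjusted p = 0.0552, 0.0861 and 0.111 for Tfpt, Actr8 and Uchl5.

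Of 13 further TIP60-p400 subunits, 1 fell and 0 rose, against 12.4% and 13.5% of all genes tested. Their median log2 fold change was 0.04, against 0.01 for all genes. The gene that fell was Kat5, the acetyltransferase of the complex, which stood at 17.4, 17.2 and 20.6 CPM in WT and 12.1, 12.2 and 13.5 CPM in KO (log2 fold change -0.55, SE 0.14, edgeR adjusted p = 0.0158). Kat5 was not called without WT replicate 3 or KO replicate 1 (edgeR adjusted p = 0.0605 and 0.0664), or with library size alone (edgeR adjusted p = 0.0992). Of 19 genes that work with RUVBL1 and RUVBL2 in R2TP and in snoRNP assembly, 2 fell and 0 rose, against the same 12.4% and 13.5%. The median was -0.26 against 0.01 for all genes (-0.04 and 0.22 with library size alone), and 16 had a negative log2 fold change. The share of all genes with a negative value was not computed, so this count and that of the INO80 list are not read as a trend. Pih1d1, a core R2TP subunit, stood at 23.4, 20.9 and 25.8 CPM in WT and 13.0, 10.3 and 14.1 CPM in KO. It was lower in every KO library and had the lowest p of these partner genes (log2 fold change -0.91, SE 0.16, edgeR adjusted p = 0.00236), and its call held in 16 of 16 alternative settings. Tti1, of the TTT complex that assembles the PIKK kinases, fell by 0.57 on the log2 scale (edgeR adjusted p = 0.0122), and was not called without WT replicate 1, without KO replicate 1 or with library size alone (edgeR adjusted p = 0.0537, 0.0522 and 0.0918).

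Of 18 other histone chaperones, 2 fell and 2 rose, with a median log2 fold change of -0.10 against 0.01 for all genes (0.10 against 0.22 with library size alone). Set, an inhibitor of histone acetylation and a chaperone, fell by 0.54, and Ssrp1, a subunit of FACT, fell by 0.47 on the log2 scale (edgeR adjusted p = 0.0200 and 0.0317). Nap1l1, an H2A-H2B chaperone, rose with a log2 fold change of 0.44, and Asf1b, an H3-H4 chaperone of dividing cells, rose with one of 1.12 (edgeR adjusted p = 0.0396 and 0.0439). Asf1b was low, at 0.239 to 0.454 CPM in WT and 0.616 to 1.06 CPM in KO. Leaving out WT replicate 1, WT replicate 2 or KO replicate 1 ended each of the 4, with edgeR adjusted p from 0.0581 to 0.182. Without WT replicate 3, Ssrp1, Nap1l1 and Asf1b were not called (edgeR adjusted p = 0.0774, 0.0803 and 0.147). Without KO replicate 3, Set and Asf1b were not called (edgeR adjusted p = 0.0769 and 0.0565). With library size alone, Set and Ssrp1 were not called (edgeR adjusted p = 0.138 and 0.222). Nap1l1 was not called with no expression filter (edgeR adjusted p = 0.0578), nor Asf1b by DESeq2 (adjusted p = 0.0586). Of 15 proliferation markers, 2 rose and 1 fell, near the 13.5% and 12.4% of all genes tested. Their summed level was 31.4 to 42.4 CPM in WT and 41.8 to 61.4 CPM in KO, with overlapping ranges. None was at 0 in all libraries, and their part in the rise of Asf1b was not tested. Of 4 H2A.Z readers, 0 were called by edgeR, and 1 had an unadjusted p below 0.05, Brd2, which was named after its values were seen. Brd2 encodes a bromodomain protein that binds acetylated H2A.Z nucleosomes, and it stood at 54.7, 51.7 and 66.0 CPM in WT and 73.9, 71.2 and 75.0 CPM in KO (edgeR adjusted p = 0.0958).

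**Figure D5:**
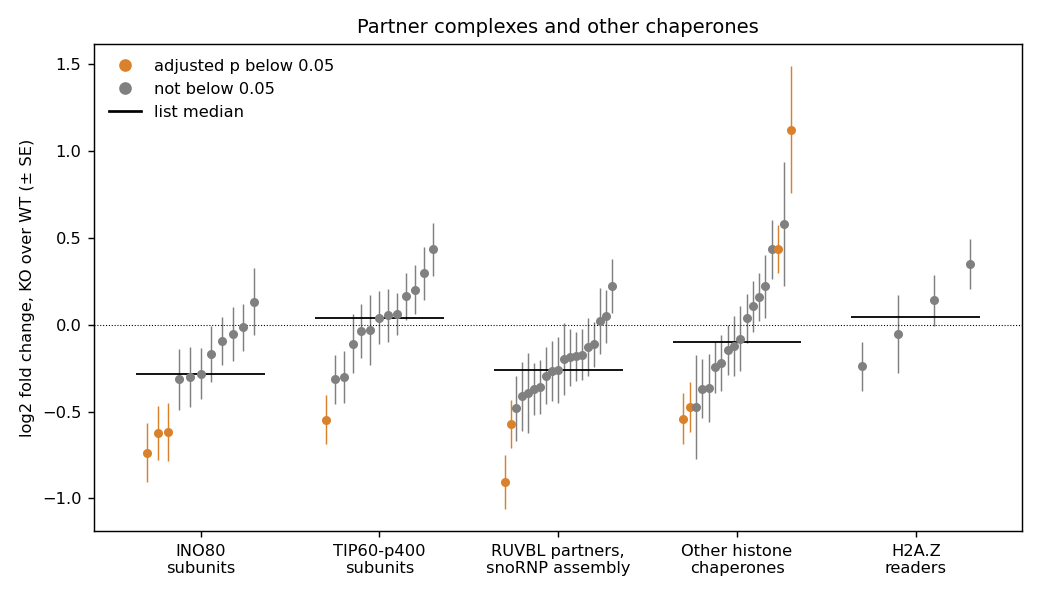
Log2 fold change of KO over WT with its SE for each tested gene of the 5 partner lists, with the list median as a line and called genes in orange. The medians lie at -0.28 for INO80 subunits, -0.26 for RUVBL co-chaperones, -0.10 for other chaperones and 0.04 for TIP60-p400 subunits and H2A.Z readers.

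The genes whose levels ran most like those of the 2 called members with the lowest p in each direction were sought among the 7496 genes whose log2 CPM averaged 3 or more. Likeness was the root mean square difference of centred log2 CPM over the 6 libraries. For Vps72 they were Gpr180 (difference 0.07, log2 fold change -1.18), Bcl2l2 (0.09, -1.35) and Cltb (0.09, -1.08). For Srcap ENSMUSG00000090663 they were Nelf (difference 0.06, log2 fold change 0.46), Spry2 (0.07, 0.45) and Plxnd1 (0.07, 0.47). The first 3 genes were themselves called (edgeR adjusted p = 0.000359, 9.45e-05 and 0.000604), and the other 3 were not (edgeR adjusted p = 0.0512, 0.0632 and 0.0537). Likeness took in the difference between KO and WT, so fold changes near that of the member follow from the choice and are no separate result.

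The authors' deposited table called 4 of the 11 rows at its adjusted p, and they were the 4 rows called here, in the same directions. That table called 14.5% of its 28510 genes. This share counts genes that failed the filter on low counts, which all 11 rows passed, so it is not a like background for them. In the authors' deposited table the log2 fold change was -1.18 for Vps72 (adjusted p = 1.205e-13 in that table), -0.72 for Dmap1, -0.56 for Ruvbl1 and 0.49 for Srcap ENSMUSG00000090663.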

How the data were processed

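RNA of 6 frozen tibialis anterior samples, 3 WT and 3 KO, was sequenced after ribosomal RNA removal with a stranded total RNA kit, per the labels' protocols. Tools listed in the submitters' processing notes were HTSeq 0.6.1, TopHat2 2.0.14, Bowtie and bcl2fastq 2.17.1.14, and the build was mm9. Neither the gene annotation nor whether counting used strand is given in the sources used, so antisense or overlapping neighbours could share reads with a gene. The authors deposited raw counts per gene, not normalized, per the file headers. The authors also deposited a signal per kb, which per the file headers is the normalized count over the length of the gene, and that length was recovered from it. The authors' own log2 fold change, p-value and adjusted p-value were deposited in the same table, and no source used here names the test behind them. Of the gene names, 14 had become dates and were restored, and 939 repeated names were made unique with the gene identifier.

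The fit used the quasi-likelihood test of edgeR 4.0.16 (R 4.3.3) on the counts, without a covariate, after filterByExpr with a minimum count of 10 and TMM scaling, over all 16628 genes that passed, with Benjamini-Hochberg adjustment. Total counts were 35456883 to 102919416 per library. Confidence intervals at 95% used the degrees of freedom of the fit. Ratios were compared by exact permutation of the samples. On simulated counts with known changes, 52.6% of genes changed by log2 1 and 94.8% of genes changed by log2 2 were recovered among 16233 tested, and 11 unchanged genes were called. The simulation changed only 200 genes, while 4311 were called in the data, so these shares need not hold for the data. At log2 1 a gene that was not called may have changed. Sequences are from RefSeq (GRCm38.p6), matched by symbol. Distances between genes are from GENCODE vM21, which is not the authors' build, and 26186 identifiers of the table are in it. Alternatives were other scalings, other expression filters, DESeq2 1.42.0, limma-voom (limma 3.58.1), robust dispersion, mitochondrial and haemoglobin genes left out, the replicate number as a block, and each library left out. Chosen after seeing the data were the joint removal of WT replicate 2 and KO replicate 1, both Srcap rows summed, and merged exon lengths. Figures were drawn with matplotlib 3.10.9.

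The members and lists were chosen with earlier results of these data known. Genes named are the 10 members, both deleted genes, up to 4 called genes per partner list with the lowest p, and the 3 genes most like a called member in each direction. Tmod4, Gys1, Eri3, Plod3 and Brd2 fall outside that rule and were chosen after their values were seen. Partner symbols that the table lists under other names were matched by gene identifier.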

Additional observations from a re-analysis of the deposited data

How the results depend on the processing

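Vps72 kept its call in 16 of 16 alternatives and Dmap1 in 15 of 16, the exception being the joint removal of WT replicate 2 and KO replicate 1 (log2 fold change -0.69, edgeR adjusted p = 0.0770). The same setting called 2090 genes, 0 members risen and 1 fallen, and 0 partner genes risen and 1 fallen. With each library left out in turn, 2559 to 4510 genes were called (2559 without KO replicate 1, 2767 without WT replicate 1 and 2872 without WT replicate 3), with 0 to 2 members risen, 2 to 3 fallen, and 0 to 4 partner genes risen and 2 to 11 fallen. The 2 risen members and 4 risen partner genes came without KO replicate 2, and the 2 fallen partner genes without KO replicate 1. Library size alone shifted all genes (median log2 fold change 0.22) and gave 2 risen members, Srcap ENSMUSG00000053877 being added (log2 fold change 0.48, edgeR adjusted p = 0.0352), with 5 partner genes risen and 1 fallen. Risen partner genes numbered 1 with DESeq2 and 1 with no expression filter, and Ruvbl2 was called with no filter (log2 fold change -0.53, edgeR adjusted p = 0.0282). Some uncalled values turned direction. With library size alone Znhit1 went to 0.0810, Actr6 to 0.110, Anp32e to 0.0743 and Plod3 to 0.107 on the log2 scale. With each library left out in turn, Znhit1 ran from -0.30 to 0.0983 (the latter without WT replicate 3) and Actr6 from -0.18 to 0.0333 (the latter without WT replicate 2). With WT replicate 2 and KO replicate 1 removed jointly, Actr6 went to 0.101 and Anp32e to 0.0043. The log2 ratio of Ruvbl1 to Ruvbl2, KO minus WT, ran from -0.149 to 0.112 with each library left out, and was positive without WT replicate 2 and without KO replicate 1. The causes were not tested. Same-numbered WT and KO replicates were not shown to be paired, their deviations correlating at 0.06, 0.02 and 0.06. With the replicate number as a block, 4693 genes were called, with 1 member risen and 4 fallen, Ruvbl2 being added (log2 fold change -0.57, edgeR adjusted p = 0.0159). The fewest counts of a member were 215, for Yeats4 in WT replicate 2, the shallowest library.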

Other observations

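Upstream windows of the members, called and uncalled together, differed among themselves in composition. Over 11 windows of 9 matched genes the CpG count ran from 6 to 28 with a median of 13, against a median of 6 over all 32851 windows. The GC content ran from 42.4% to 69.2%, with a median of 52.4%, the same as over all windows. CCGGAAG was found in 4 of the 11 windows, CCAAT in 6 and GGGCGG in 3, against 6.91%, 33.8% and 32.7% of all windows. Some of the 11 windows belong to the same gene and overlap, and the set is small. Plod3, which encodes a collagen lysyl hydroxylase and overlaps Znhit1 on the other strand, had a log2 fold change of -0.11 (SE 0.15, edgeR adjusted p = 0.636).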
